A study of Mus musculus with 8 samples.

Results

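The genes described here are 44 mouse counterparts of human genes in which variants are known from autism, intellectual disability and related syndromes of brain development. They were taken by name from a count table of 22000 gene rows. All 44 were in the table, and all 44 were among the 13879 genes that passed the filter on low counts. Messenger RNA from whole cortex was sequenced in 4 mice whose labels read Mef2c heterozygous and 4 labelled wild type. Each genotype had 2 mice of either sex, and each mouse gave 1 library. Mef2c codes for a transcription factor of neurons and microglia whose loss of 1 copy causes a human neurodevelopmental syndrome. The strain, the age, the altered part of the gene and the cells in which it was altered are not stated in the sources used here.

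Many genes of this kind are dosage sensitive, which means that loss of 1 copy is enough to disturb development. They fall into broad roles. Chromatin regulators place or remove marks on histones or move nucleosomes, and so set which genes a neuron can transcribe. Synaptic adhesion proteins such as neurexins and neuroligins join the sending and the receiving side of a synapse, and the remaining genes act in growth signalling, protein degradation and the handling of RNA. Of the 44, 23 are chromatin and transcription genes, 10 are genes of synaptic adhesion and the neuronal membrane, and 11 are genes of signalling, ubiquitin ligases and RNA.

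Library totals lay between 16092773 and 17841377 reads. Levels below are in CPM, counts scaled by TMM for library size, or in CPM per kb of exon where different genes are set against each other. Mef2c itself was higher in the libraries labelled heterozygous, at 1304 ± 73.2 CPM, than in those labelled wild type, at 995 ± 41.3 CPM (SD, n = 4 each), so the count goes against the genotype label and every direction below refers to libraries as labelled. Markers of the cortex were present in every library. Slc17a7, the vesicular glutamate transporter gene of cortical excitatory neurons, was at 1808 to 2030 CPM in the libraries labelled heterozygous and 1776 to 1947 CPM in those labelled wild type. No marker of inhibitory neurons, astrocytes, the oligodendrocyte lineage, microglia or endothelial cells was called between the genotypes by edgeR's quasi-likelihood test. The sum of 3 hippocampus markers did not overlap, at 36.4 to 39.7 CPM against 26.2 to 29.7 CPM in the libraries labelled wild type, and 1 of the 3, Fibcd1, was called. The other 2, Prox1 (16.01 to 20.7 CPM against 14.5 to 17.4 CPM in the libraries labelled wild type) and C1ql2 (log2 fold change -0.22), overlapped and were not called, so the separation of the sum came with Fibcd1. In whole tissue, fewer cells of a type and less RNA per cell cannot be told apart.

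None of the 44 genes differed between the libraries labelled heterozygous and those labelled wild type in edgeR's quasi-likelihood test (adjusted p under 0.05 by Benjamini-Hochberg over all 13879 genes). Of all tested genes 0.267% were called, 37 in number, 18 higher (0.13%) and 19 lower (0.137%) in the libraries labelled heterozygous. At an unadjusted p under 0.05, 1 of the 44 (2.27%) passed, the neurexin gene Nrxn3, against 7.24% of all tested genes. The DESeq2 Wald test, which called 0.576% of all genes, and limma-voom, which called 0.231%, also called 0 of the 44. The 4 libraries labelled heterozygous did not overlap with the 4 labelled wild type for 1 of the 44 (2.27%), Tsc1, against 4.55% of all tested genes. Of the 44, 24 (54.5%) lay above 0 on the log2 scale, against 49.5% of all tested genes.

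The absence of calls came with narrow intervals. For 40 of the 44 (90.9%) the 95% interval of the genotype difference lay wholly within 1.25-fold in either direction, and for 42 it lay within 1.5-fold. Over all tested genes 58.8% had an interval within 1.25-fold, and over the 7890 genes with at least 20 CPM, a level that 42 of the 44 reached, 91.0% did. Without Magel2 and Adnp, which were the lowest members, the fitted folds of the other 42 ran from 0.921 to 1.09. No interval among these 42 reached below 0.846-fold or above 1.29-fold. The 4 genes whose interval passed 1.25-fold were Magel2, Adnp, Kdm6b and Upf3b.

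**Figure D1:**
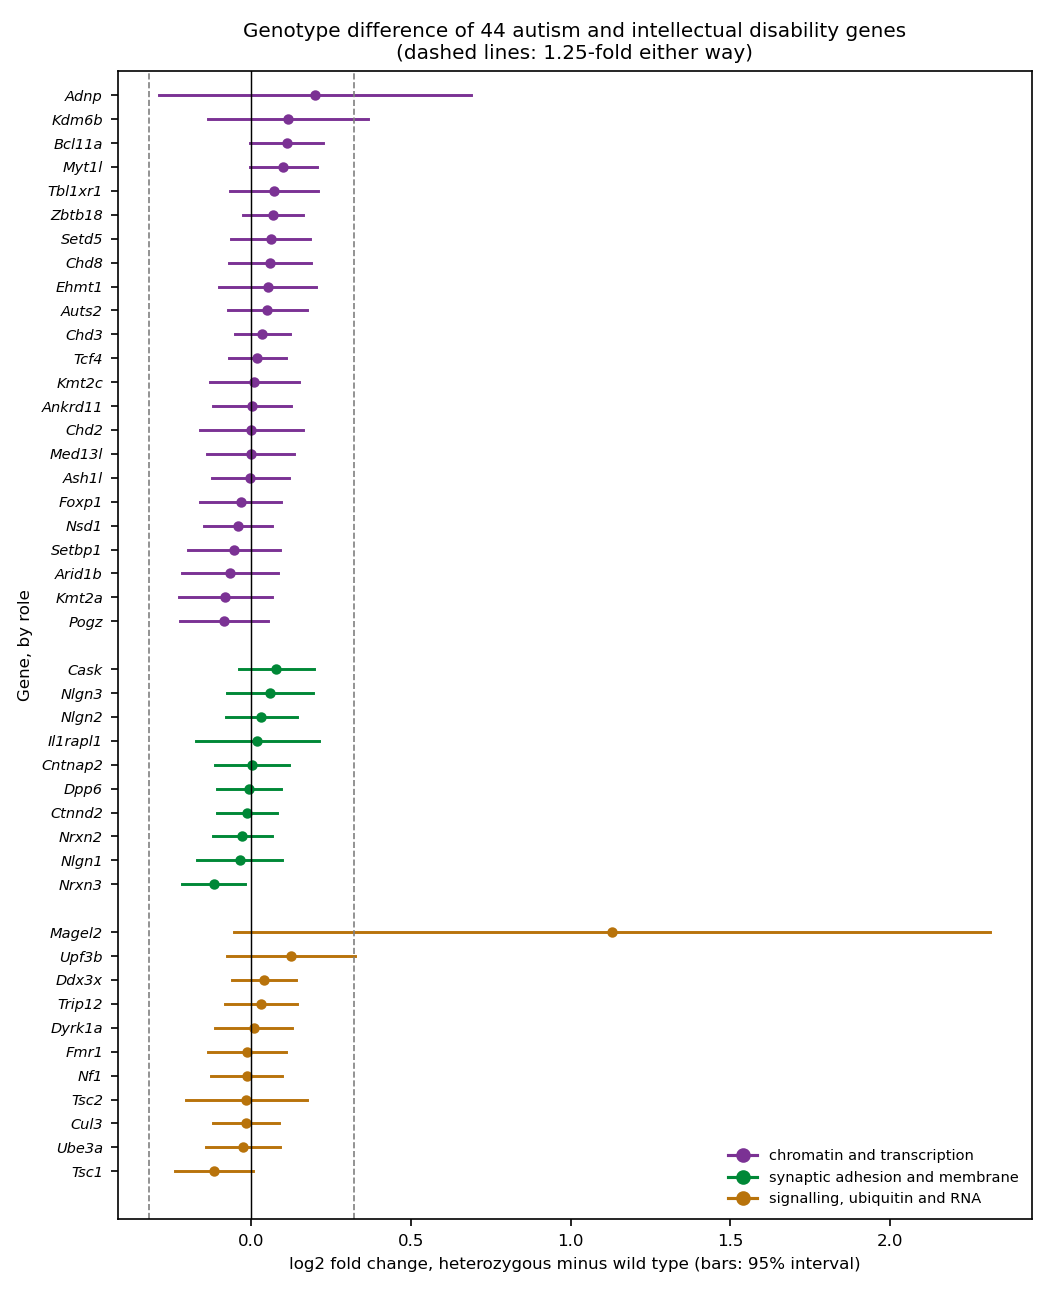
Log2 fold change of each of the 44 genes (x axis, heterozygous minus wild type) with its 95% interval, by role and in order of size (y axis), from 4 libraries of each genotype label. All intervals but those of Magel2, Adnp, Kdm6b and Upf3b lie between the dashed lines at 1.25-fold.

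The contrast of the roles showed medians close to 0 in all of them. The median log2 fold change was 0.02 for the 23 chromatin and transcription genes, -0.003 for the 10 synaptic and membrane genes and -0.01 for the 11 signalling, ubiquitin and RNA genes, beside -0.001 for all tested genes. Log2 fold changes ran from -0.09 to 0.20 among chromatin and transcription genes and from -0.12 to 0.08 among synaptic and membrane genes. Of the chromatin and transcription genes 14 of 23 (60.9%) were above 0, and of the synaptic and membrane genes 5 of 10 were. The finer lists did not part further: the median was 0.02 for 6 remodellers and readers, 0.01 for 7 histone methylation enzymes and 0.03 for 10 transcription factors and co-regulators.

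The roles had different levels and gene structures. Per kb of exon, the median level was 7.22 CPM for the chromatin and transcription genes, 14.7 CPM for the synaptic and membrane genes and 9.92 CPM for the others. In all, 35 of the 44 stood above the median gene, among them 16 of 23 chromatin and transcription genes and 9 of 10 synaptic and membrane genes. The chromatin and transcription genes had the longest exon sequence, a median of 14.0 kb against 4.62 kb for all tested genes. The synaptic and membrane genes covered the most genome, with a median span of 881 kb against 26.3 kb for all tested genes, and Cntnap2, the gene of an axonal cell adhesion protein, spanned 2245 kb of chromosome 6. Exon lengths were the union of all annotated transcripts, so levels per kb are understated for genes with many rare exons.

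Among the chromatin remodellers, Chd3, a subunit gene of the NuRD nucleosome remodelling complex, had the highest level per kb of all 44 genes. Its levels were 632, 619, 647 and 607 CPM in the libraries labelled heterozygous and 592, 619, 616 and 618 CPM in those labelled wild type. The groups overlapped, the fold was 1.02 (95% interval 0.965 to 1.09) and this was the narrowest spread of the list, with a biological coefficient of variation of 4.97%. Per kb of exon, Chd3 (73.3 ± 1.91 CPM) was followed by the outside genes Chd5 (29.2 ± 1.01) and Chd4 (21.7 ± 2.35). Then came Chd8 (6.76 ± 0.437), Chd2 (3.93 ± 0.35) and the outside gene Chd7 (0.662 ± 0.0793) (SD, n = 8 libraries). No neighbours in this order overlapped in their ranges over the libraries.

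Chd8, which codes for a remodeller that is among the genes most often mutated in autism, had 128, 109, 111 and 109 CPM in the libraries labelled heterozygous and 112, 109, 103 and 114 CPM in those labelled wild type. Heterozygous replicate 1 stood above the other 7 libraries, which overlapped between the labels. The log2 fold change was 0.06 ± 0.06 (SE), and it was -0.008 without that library. Arid1b, a subunit gene of the BAF remodelling complex, showed the same library apart, with 106, 80.3, 84.1 and 85.4 CPM in the libraries labelled heterozygous and 90.5, 95.7, 88.6 and 97.3 CPM in those labelled wild type. The other 3 libraries labelled heterozygous were below all libraries labelled wild type. Its log2 fold change was -0.07 ± 0.07 (SE, adjusted p = 0.963 in edgeR), and -0.16 without heterozygous replicate 1 (adjusted p = 0.404).

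Pogz, whose zinc finger protein binds heterochromatin proteins, had 56.5, 54.2, 61.6 and 57.2 CPM in the libraries labelled heterozygous and 64.1, 61.5, 56.0 and 61.9 CPM in those labelled wild type. The groups overlapped, and the fold was 0.943 (95% interval 0.857 to 1.04). Chd2, a remodeller gene known from childhood epilepsy, had a fold of 1.00 (0.894 to 1.12). In the annotation used here 18.4% of its exon sequence is shared with a non-coding neighbour on the same strand, so some of its reads may have been left uncounted.

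Adnp, a zinc finger gene that is a frequent single cause of autism, was counted at only 2.43, 3.13, 3.48 and 3.41 CPM in the libraries labelled heterozygous and 3.03, 1.96, 2.81 and 3.09 CPM in those labelled wild type. That placed it at the 9.07th percentile of tested genes per kb. In the annotation, 82.1% of its exon sequence is shared with Gm20716, a gene model on the same strand that was not analysed here. Whether the annotation behind the counts held that model is not stated, so the level of Adnp is uncertain. Its interval ran from 0.818-fold to 1.61-fold. The part of the overlap in the low count was not tested.

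Histone methylation enzymes add or remove methyl groups on histone tails. Kmt2a, a methyltransferase of lysine on histone H3 at active genes, had 125, 119, 121 and 115 CPM in the libraries labelled heterozygous and 107, 122, 141 and 138 CPM in those labelled wild type. The libraries labelled heterozygous lay inside the wider range of the wild type ones, and the log2 fold change was -0.08 ± 0.07 (SE). It was -0.007 without wild type replicate 4 and -0.15 without wild type replicate 1. Animal numbers in the sample titles fall into a lower and a higher run. The difference was -0.24 within the higher, second run and 0.09 within the lower, first run. Setd5, whose product carries the SET domain of methyltransferases, had 126, 119, 118 and 108 CPM against 109, 108, 114 and 120 CPM in the libraries labelled wild type, with overlapping groups and a fold of 1.04 (0.957 to 1.14). The other members of this list that are not described further, Kmt2c, Ash1l, Nsd1 and Ehmt1, had folds of 1.01, 0.998, 0.971 and 1.04.

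Kdm6b, a demethylase gene that removes a repressive mark from histone H3, had the widest spread among the genes with at least 20 CPM, a biological coefficient of variation of 11.2%. Its levels were 27.4, 26.0, 20.7 and 25.2 CPM in the libraries labelled heterozygous and 18.04, 26.7, 27.8 and 20.3 CPM in those labelled wild type. The 2 lowest wild type libraries were those of the females. Heterozygous females had 26.0 and 25.2 CPM against 18.04 and 20.3 CPM in wild type females. Heterozygous males had 27.4 and 20.7 CPM against 26.7 and 27.8 CPM in wild type males, with the lower mean in the heterozygous ones. The signed genotype difference was 0.60 lower on the log2 scale in males than in females. Its unadjusted p was 0.00732 in edgeR's test of the interaction and did not pass the adjustment. Kdm6b was the 1 gene of the 44 at an unadjusted p under 0.05 in that test, 2.27% against 2.64% of all tested genes. No gene was called for the interaction (0% of all tested genes) with 2 mice per sex and genotype.

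Among the transcription factors and co-regulators, Bcl11a, Myt1l and Zbtb18 had the smallest p, and none passed. Bcl11a, a zinc finger factor that controls the migration and identity of cortical projection neurons, had 181, 178, 183 and 168 CPM in the libraries labelled heterozygous and 157, 178, 182 and 143 CPM in those labelled wild type. The 2 lowest were the wild type females, and the other wild type libraries lay among the heterozygous ones. The fold was 1.08 (0.998 to 1.17), and it did not pass (adjusted p = 0.711). Myt1l, a factor that keeps neurons from expressing genes of other lineages, had 329, 286, 293 and 274 CPM in the libraries labelled heterozygous and 281, 287, 280 and 254 CPM in those labelled wild type. Heterozygous replicate 1 was the highest by a wide margin, and the log2 fold change was 0.10 with it and 0.06 without it.

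Zbtb18, a repressor gene needed for the growth of the cortex, had 447, 482, 455 and 446 CPM in the libraries labelled heterozygous and 440, 439, 448 and 420 CPM in those labelled wild type. Only the highest wild type library reached into the range of the heterozygous ones, the fold was 1.05 (0.982 to 1.12) and the adjusted p was 0.864. Zbtb18 was the 1 gene of the set with a match to the MEF2 consensus, the A and T rich element that MEF2 proteins bind, in a promoter window, here 250 bases before to 50 after a RefSeq start site. Windows were on file for 33 of the 44 genes, so 3.03% of them had a match on either strand, against 2.08% of 10382 tested genes. A match is a run of letters and not a shown binding site. The 2 windows with a match are printed because Mef2c is the gene altered in these mice, in lower case with the matching bases in capitals, from RefSeq on GRCm38.p6, plus strand.
Zbtb18 window at chr1:177444688-177444987: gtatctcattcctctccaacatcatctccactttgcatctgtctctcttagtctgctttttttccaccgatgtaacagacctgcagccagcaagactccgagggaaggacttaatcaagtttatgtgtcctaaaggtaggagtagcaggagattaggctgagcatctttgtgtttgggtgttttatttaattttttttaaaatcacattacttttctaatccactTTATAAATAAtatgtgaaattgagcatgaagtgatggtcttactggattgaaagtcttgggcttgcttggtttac
Zbtb18 window at chr1:177445571-177445870: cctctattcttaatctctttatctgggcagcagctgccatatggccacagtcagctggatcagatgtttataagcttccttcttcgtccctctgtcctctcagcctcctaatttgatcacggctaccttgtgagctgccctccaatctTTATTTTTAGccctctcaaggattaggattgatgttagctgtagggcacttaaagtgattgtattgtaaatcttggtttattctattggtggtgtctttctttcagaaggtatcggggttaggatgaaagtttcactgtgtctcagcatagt
The matches begin at positions -25 and -102 relative to the start site of their window. A further 3 windows of the gene, among them a GC-rich one upstream, had none.

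The other transcription genes stayed close to even. Tcf4, a basic helix-loop-helix factor gene of Pitt-Hopkins syndrome, had a fold of 1.01 (0.952 to 1.08) and Foxp1, a forkhead factor gene linked to speech and intellectual disability, 0.977 (0.894 to 1.07). Tbl1xr1, Med13l, Ankrd11, Auts2 and Setbp1, genes of co-repressors, the Mediator complex and other co-regulators, had folds between 0.963 and 1.05. Auts2 was spread over 1106 kb and, with 3.34 CPM per kb, was among the lower members.

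**Figure D2:**
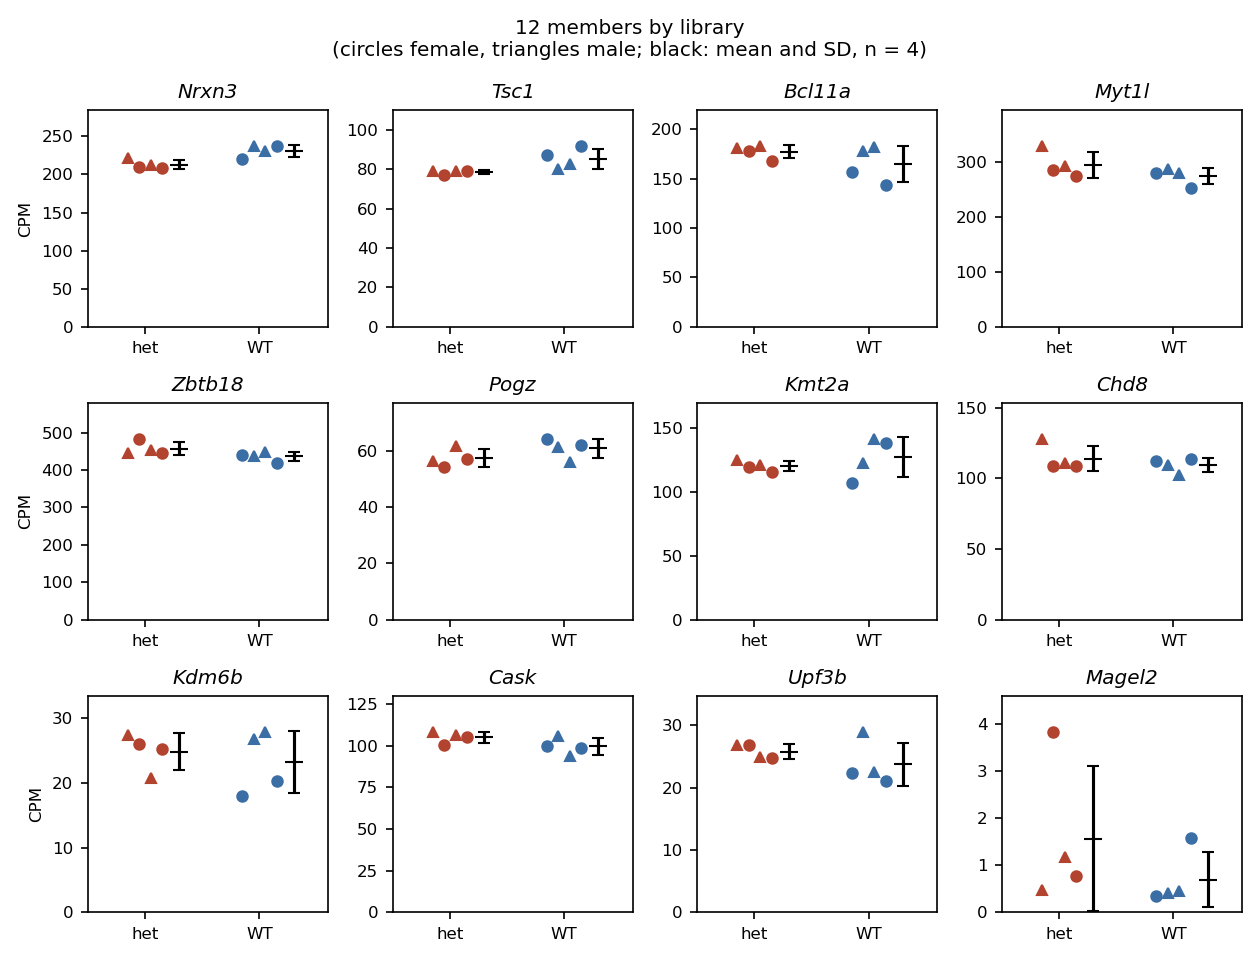
CPM (y axis, from 0) of 12 of the 44 genes in each library, by genotype label (x axis). Circles are females and triangles males, and black bars give the mean and SD of 4 libraries. The labels overlap in every panel but that of Tsc1, where the highest library labelled heterozygous has 79.3 CPM and the lowest labelled wild type 80.05 CPM.

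Of the synaptic adhesion genes, Nrxn3 had the smallest p of all 44. Neurexins are receptors on the sending side of the synapse that bind neuroligins across the cleft. Nrxn3 levels were 221, 209, 213 and 209 CPM in the libraries labelled heterozygous and 221, 237, 230 and 237 CPM in those labelled wild type. Heterozygous replicate 1 and wild type replicate 1 met at the edge, and the other libraries did not overlap. The means were 213 ± 5.66 against 231 ± 7.65 CPM (SD, n = 4 each). On the log2 scale the difference was -0.12 ± 0.05 (SE), with an unadjusted p of 0.0209 (adjusted p = 0.537), so it did not pass. The difference was -0.15 within the second run of animal numbers and -0.09 within the first. The gene (chr12:88722876-90334935 in GRCm38, plus strand) spans 1612 kb.

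The other neurexin of the set lay closer to even. Nrxn2 had 421, 443, 430 and 460 CPM in the libraries labelled heterozygous and 441, 427, 460 and 461 CPM in those labelled wild type, which overlapped throughout, with a fold of 0.980 (0.919 to 1.05). Per kb of exon, Nrxn3 (17.6 ± 0.918 CPM) was below Nrxn2 (32.1 ± 1.17 CPM; SD, n = 8 libraries), with no overlap over the libraries.

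Neuroligins are the partners on the receiving side, Nlgn1 mainly at excitatory and Nlgn2 at inhibitory synapses. Nlgn2 was the most abundant, at 53.1 ± 3.28 CPM per kb, then Nlgn3 at 11.85 ± 0.853 and Nlgn1 at 6.15 ± 0.358 (SD, n = 8 libraries), with no overlap between neighbours in this order. For Nlgn3 41.2% of the exon sequence is shared with a non-coding gene model on the same strand, so some of its reads may have been left uncounted. Their genotype folds were 1.02 (0.946 to 1.104) for Nlgn2, 1.04 (0.949 to 1.14) for Nlgn3 and 0.9749 (0.889 to 1.07) for Nlgn1. Nlgn3 had 104, 106, 114 and 124.5 CPM in the libraries labelled heterozygous and 104.5, 101, 116.5 and 108 CPM in those labelled wild type, and without heterozygous replicate 4, the highest, its log2 fold change was -0.0008.

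Cask, the gene of a scaffold kinase that binds neurexins inside the cell, had 108, 101, 106 and 106 CPM in the libraries labelled heterozygous and 99.9, 106, 93.9 and 98.9 CPM in those labelled wild type. The groups overlapped through wild type replicate 2, with a fold of 1.06 (0.972 to 1.15) and an adjusted p of 0.893. Cntnap2 had a fold of 1.00 (0.924 to 1.08). Ctnnd2, the gene of a catenin of dendrites, and Dpp6, whose product is an auxiliary subunit of potassium channels, had folds of 0.990 and 0.995. Il1rapl1, an X-linked gene of a synaptic adhesion receptor, was the lowest of this role at 2.30 CPM per kb and had a fold of 1.01 (0.886 to 1.16).

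In growth signalling, Tsc1 and Tsc2 code for the 2 proteins of the complex that restrains mTOR, a kinase that drives protein synthesis. Tsc1 had 79.0, 77.2, 79.0 and 79.3 CPM in the libraries labelled heterozygous and 87.35, 80.05, 82.6 and 91.75 CPM in those labelled wild type, so that all libraries labelled heterozygous were below all labelled wild type. The heterozygous values lay within a narrow range. The means were 78.6 ± 0.971 against 85.4 ± 5.18 CPM (SD, n = 4 each), and the fold of 0.921 (0.846 to 1.00) did not pass (adjusted p = 0.709). Tsc2 overlapped throughout, at 127, 115, 148 and 144 CPM against 132, 119, 150 and 139 CPM in the libraries labelled wild type, a fold of 0.988 (0.867 to 1.13). Nf1, which codes for a brake on Ras, had 118.5, 123, 113 and 114 CPM against 119, 118, 118 and 117.5 CPM in the libraries labelled wild type. These lay closer together than those labelled heterozygous, and the fold was 0.989 (0.916 to 1.07). Dyrk1a, a kinase gene within the region tripled in Down syndrome, had a fold of 1.01 (0.924 to 1.09).

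Tsc2 differed between the runs of animal numbers. The labels do not say what these runs stand for, and each run held 1 mouse of either sex and genotype. Tsc2 had 148, 144, 150 and 139 CPM in the second run and 127, 115, 132 and 119 CPM in the first, with no overlap between the runs. On the log2 scale this was 0.24 ± 0.05 (SE, second minus first run), and the adjusted p was 0.0502, just above the threshold. This test was added after the data had been seen. It called 0 of the 44 genes, with 0.382% of all tested genes called. At an unadjusted p under 0.05 there were 7 of 44 (15.9%), against 10.2% of all tested genes: Tsc2, Nlgn2 and Nlgn3, which were higher in the second run, and Chd2, Foxp1, Myt1l and Med13l, which were lower.

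The Tsc2 gene (chr17:24595816-24632630 in GRCm38, minus strand) lay among other genes that differed between the runs. Of the 62 further tested genes starting within 1 Mb of its start, 6 were called for the run, all higher in the second run: Pkmyt1, Amdhd2, Tbc1d24, Eme2, Unkl and Gnptg. Of these 62, 43 (69.4%) were above 0, with a median of 0.09, against 50.9% and 0.002 for 12764 genes on other chromosomes, of which 40 were called. The 693 bases that Tsc2 shares with exons of Pkd1 on the other strand make up 7.2% of its exon sequence.

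**Figure D3:**
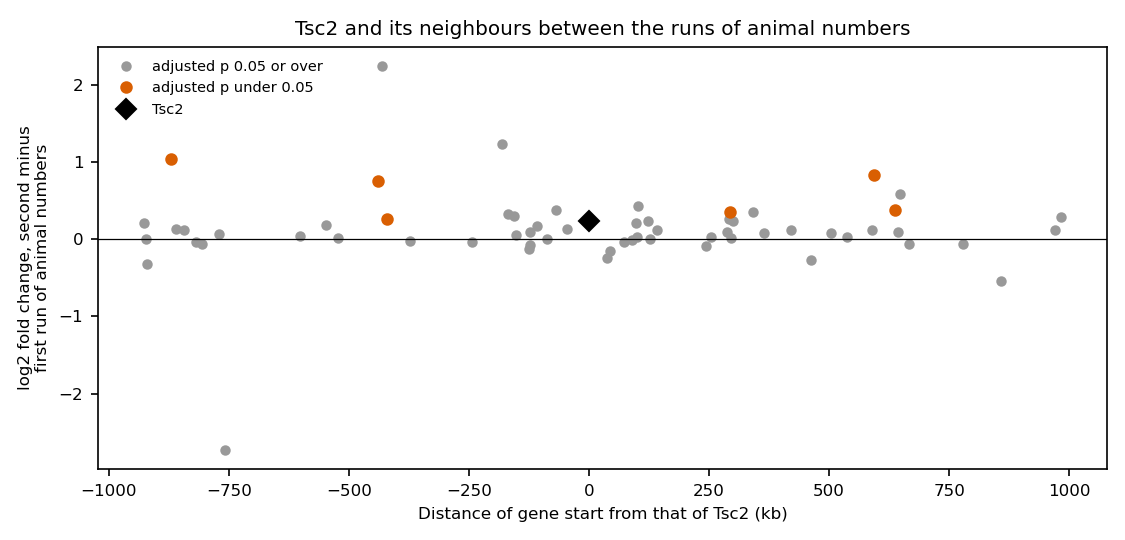
Log2 fold change between the runs of animal numbers (y axis, second minus first, 4 libraries each) of tested genes by the distance of their start from that of Tsc2 (x axis, kb). Tsc2 (diamond) has 0.24, and the 6 neighbours with an adjusted p under 0.05 (orange) are all above 0.

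Ubiquitin ligases tag proteins for degradation. Ube3a, the Angelman syndrome gene, of which neurons use the maternal copy, had 137, 149, 133 and 129 CPM in the libraries labelled heterozygous and 136, 139, 139 and 144 CPM in those labelled wild type, which overlapped, with a fold of 0.982 (0.906 to 1.06). Its antisense transcript Snhg14, not analysed here, overlaps 8.7% of its exon sequence. Cul3, the scaffold gene of a ligase family, had a fold of 0.988 (0.919 to 1.06). Trip12 had 203, 179, 177 and 175 CPM in the libraries labelled heterozygous and 177, 182, 175 and 185 CPM in those labelled wild type, where heterozygous replicate 1 was the highest and the others overlapped. Its log2 fold change was 0.03, and -0.02 without that library.

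Magel2, an imprinted gene of the Prader-Willi region whose product works with a ubiquitin ligase and which is known best from the hypothalamus, was at the low end of what was counted. It had 8, 66, 19 and 14 reads in the libraries labelled heterozygous and 6, 7, 8 and 26 reads in those labelled wild type. The 66 reads of heterozygous replicate 2 (95% exact Poisson interval 51.0 to 84.0, counting error only) stood apart from all others. The highest of the wild type libraries, replicate 4, was likewise from a female. The fitted fold was 2.19 (0.963 to 4.97, adjusted p = 0.722 in edgeR), and the log2 fold change was 0.38 without heterozygous replicate 2, against 1.13 with it. A list of 12 hypothalamus genes, added after these values had been seen, summed to 39 to 131 reads in the libraries labelled heterozygous and 30 to 105 in those labelled wild type, with 50 in heterozygous replicate 2. Of the 12, 1 (Ghrh) had no read and 7 more had at most 5 reads in any library. Most of the highest sums was Trh, at 7.71 CPM in heterozygous replicate 3 and 5.64 CPM in wild type replicate 4. Calcr had 0.812 CPM in heterozygous replicate 2, 0.224 CPM in heterozygous replicate 4 and no read in the other 6 libraries. Heterozygous replicate 2 also had the most reads of 3 choroid plexus markers, 100 against 34 to 52 in the libraries labelled wild type. It had the most reads of 5 striatum markers too, 4737 against 3684 to 3937 in the libraries labelled wild type. In CPM, however, the highest striatum sum (278 CPM) was that of heterozygous replicate 1, which had 8 Magel2 reads. The part of other regions in the Magel2 reads was not tested.

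Among the RNA genes, Fmr1 codes for the fragile X protein, which binds messenger RNA at synapses. It had 88.9, 88.1, 88.4 and 88.5 CPM in the libraries labelled heterozygous and 96.8, 85.2, 83.2 and 92.7 CPM in those labelled wild type. The heterozygous values were nearly equal and lay inside the range of the wild type ones, with a fold of 0.990 (0.910 to 1.08). Upf3b, a gene of nonsense-mediated decay, had 26.8, 26.8, 24.9 and 24.7 CPM in the libraries labelled heterozygous and 22.3, 28.9, 22.6 and 21.1 CPM in those labelled wild type. Wild type replicate 2 was the highest of all, the other 3 of that label were below every heterozygous library, and the fold was 1.09 (0.949 to 1.25) with an adjusted p of 0.915.

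Ddx3x, the gene of an RNA helicase that escapes X inactivation, was the 1 of the 44 that differed by sex. It had 252, 234, 233 and 228 CPM in the males and 317, 297, 312 and 300.4 CPM in the females, which did not overlap. Male minus female, the fitted log2 difference was -0.37 ± 0.05 (SE, edgeR adjusted p = 0.00117). For that comparison 0.0288% of all tested genes, 4 in number, were called. By genotype Ddx3x had a fold of 1.03 (0.960 to 1.101). Its Y-linked copy Ddx3y had 46.7 to 55.2 CPM in the males and 0 to 1.01 CPM in the females, highest in heterozygous replicate 4. The sum of both genes, chosen after the values had been seen, was 287 ± 13.9 CPM in males and 307 ± 9.31 CPM in females (SD, n = 4 each; two-sided exact permutation p = 0.0857), where 0.0286 is the smallest p that 4 against 4 allow. The genes are closely alike in sequence, so reads may have been split or left out.

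The other 5 X-linked genes, Fmr1, Nlgn3, Cask, Il1rapl1 and Upf3b, did not differ by sex beyond the threshold. Their log2 fold changes (male minus female) lay between -0.08 and 0.12, and no interval among them reached that of Ddx3x. Fmr1 averaged 86.4 ± 2.68 CPM in males and 91.5 ± 4.10 CPM in females (SD, n = 4 each), with a 95% interval of -0.20 to 0.04 on the log2 scale. At an unadjusted p under 0.05, 4 of the 44 genes (9.09%) differed by sex against 2.92% of all tested genes: Ddx3x, Bcl11a, Myt1l and Magel2. Bcl11a averaged 181 ± 2.10 CPM in males and 162 ± 15.1 CPM in females, which did not pass (adjusted p = 0.9997).

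**Figure D4:**
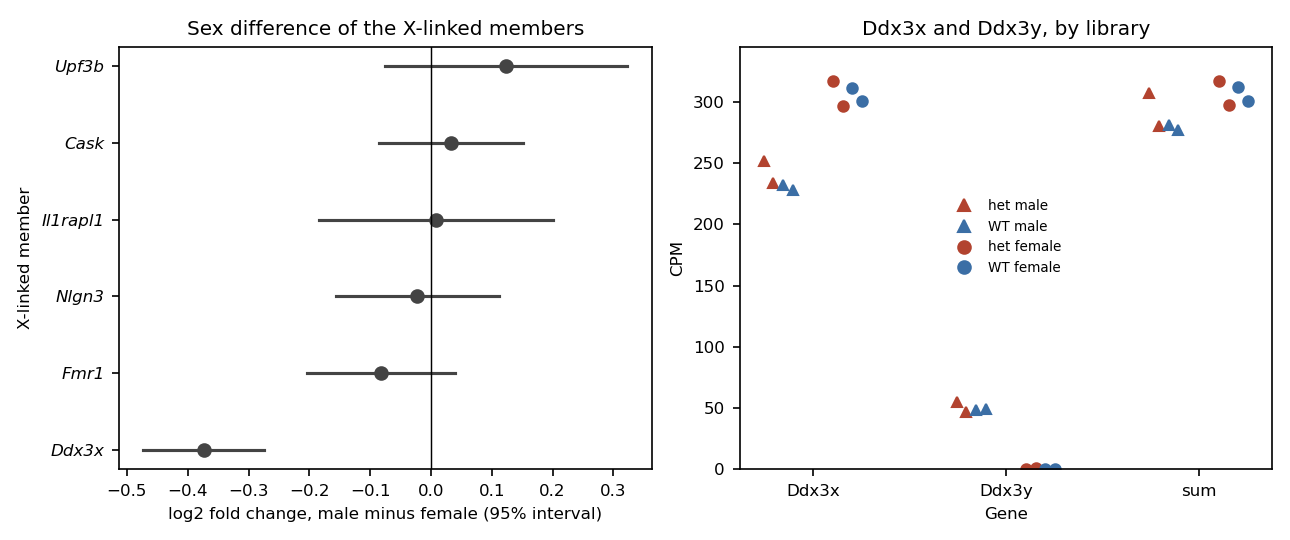
Left, log2 fold change (x axis, male minus female) with its 95% interval of the 6 X-linked genes (y axis). Right, CPM (y axis) of Ddx3x, its Y-linked copy Ddx3y and their sum in each library, with males (triangles) left of females (circles). Ddx3x lies at 228 to 252 CPM in males and 297 to 317 CPM in females, and the sums overlap.

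The promoters of the called Ddx3x and of Fmr1, which was not called, are printed for comparison with the GC box letters GGGCGG, on either strand, in capitals. They come from RefSeq on GRCm38.p6, plus strand.
Ddx3x window at chrX:13280772-13281071: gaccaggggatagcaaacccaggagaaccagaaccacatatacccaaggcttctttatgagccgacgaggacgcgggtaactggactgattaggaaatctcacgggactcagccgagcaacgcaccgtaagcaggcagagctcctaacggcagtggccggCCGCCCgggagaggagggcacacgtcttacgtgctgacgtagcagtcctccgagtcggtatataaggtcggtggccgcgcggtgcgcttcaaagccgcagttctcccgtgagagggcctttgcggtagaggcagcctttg
Fmr1 window at chrX:68678291-68678590: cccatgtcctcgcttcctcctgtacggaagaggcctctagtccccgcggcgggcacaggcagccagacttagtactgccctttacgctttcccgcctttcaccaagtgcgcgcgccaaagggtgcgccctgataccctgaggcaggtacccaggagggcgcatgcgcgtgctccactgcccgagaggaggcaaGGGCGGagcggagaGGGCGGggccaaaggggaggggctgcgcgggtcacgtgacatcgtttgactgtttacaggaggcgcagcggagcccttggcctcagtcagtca
GGGCGG was found in at least 1 window of 27 of the 33 genes with a window (81.8%), against 68.8% of 10382 tested genes. By window, of which some genes have several, it was 59.6% against 61.3%. The palindrome CACGTG was found for Fmr1 alone among the 33 (3.03%), against 11.5% of tested genes, and TGACGTCA for none, against 3.62%.

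Many of the chromatin and transcription genes were highest in the same library. Of the 23, 11 (47.8%) had their highest level in heterozygous replicate 1, against 15.1% of all tested genes, and none had its lowest there. Their median in that library, after each gene was centred on its own mean, was 0.08 on the log2 scale, while the other 7 libraries lay between -0.04 and 0.04. The 10 synaptic and membrane genes had -0.02 in heterozygous replicate 1 and the 11 other genes -0.01. Without that library the median genotype difference of the chromatin and transcription genes was -0.008, against 0.02 with it.

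Exon length moved with the same library. Of the 22 members with over 12 kb of exon sequence, 12 had their highest level in heterozygous replicate 1, and of the 22 shorter ones 2 did. The share among all tested genes of such length was not counted, so these counts have no background beside them. All of these 12 but Trip12 were chromatin and transcription genes. The remaining long genes of that role, Kmt2a, Nsd1, Bcl11a and Auts2, were highest elsewhere. So were the remaining long members of other roles, Nrxn2, Nrxn3, Nlgn1, Dpp6, Nf1 and Ube3a. Nrxn2 and Dpp6 had their lowest level in heterozygous replicate 1. Over all genes with at least 20 CPM, the median in heterozygous replicate 1 was 0.07 for 662 genes over 12 kb and -0.04 for 554 genes up to 2 kb, the widest such gap of the 8 libraries. Heterozygous replicate 4 had the opposite order, at -0.04 for the long and 0.04 for the short genes. The RNA integrity number was 8.9 in heterozygous replicate 1 and 9 in replicate 4, within a range of 8.6 to 9 over all libraries. The part of exon length in the chromatin pattern was not tested.

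**Figure D5:**
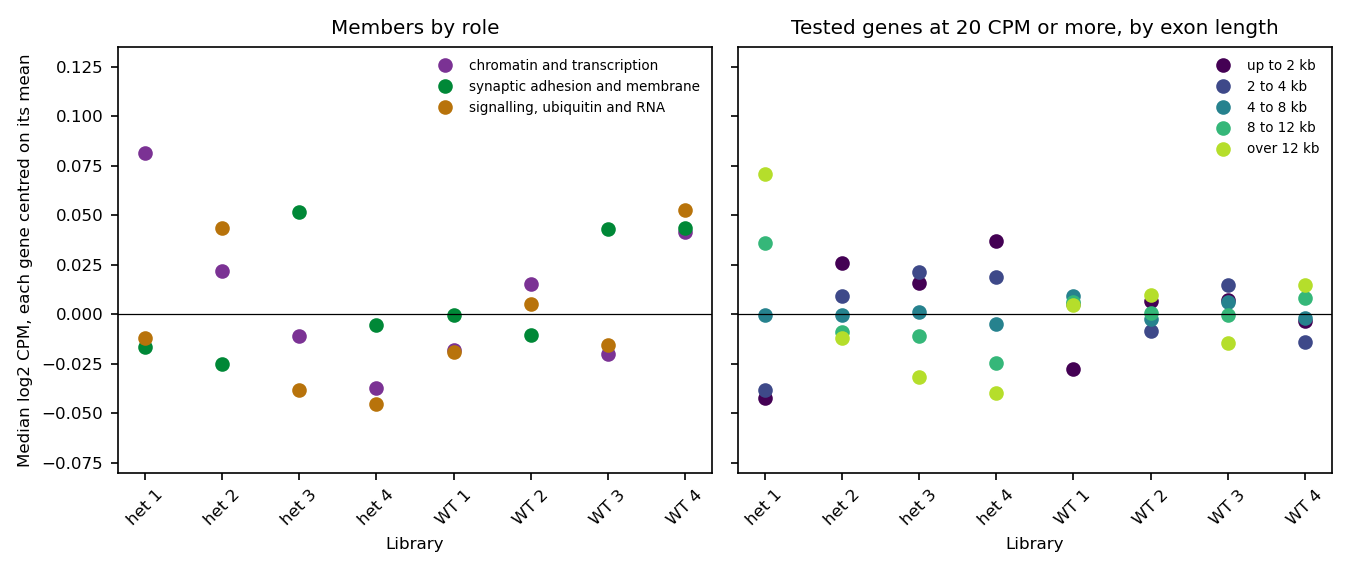
Median log2 CPM after centring each gene on its mean (y axis) in each library (x axis), for the 44 genes by role (left) and for all tested genes at 20 CPM or more by exon length (right). Heterozygous replicate 1 has 0.08 for chromatin and transcription genes and 0.07 for genes over 12 kb.

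Other genes of the same kinds, taken from lists of further syndrome genes and of paralogues, gave no call by genotype either (edgeR's quasi-likelihood test, 0.267% of all genes called). In each list the share with an unadjusted p under 0.05 was below the 7.24% of all tested genes, and the genes with the smallest p are named only as a description. Of 46 further chromatin and transcription genes 0 were called and 1 had an unadjusted p under 0.05, Tbr1, a factor of deep-layer projection neurons, at 264 CPM against 242 CPM in the libraries labelled wild type. Of 26 further synaptic and channel genes 0 were called and 1 had an unadjusted p under 0.05, the adhesion gene Cntn4, at 59.8 CPM against 67.8 CPM in the libraries labelled wild type. Of 32 further signalling, ubiquitin and RNA genes 0 were called and 2 had an unadjusted p under 0.05. These were Cul4b, a ligase scaffold gene, at 31.3 CPM against 35.7 CPM in the libraries labelled wild type, and Upf2, a partner of Upf3b in decay, at 60.1 CPM against 66.9 CPM in the libraries labelled wild type. Next by p were Arid2, Scn1a and, among the paralogues, Cul1, with log2 fold changes of -0.15, -0.12 and -0.10. The median log2 fold changes were 0.01, -0.03 and -0.001 for these 3 lists.

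Of 49 paralogues of the 44 genes, some of them in the lists above, 0 were called by genotype and 1 had an unadjusted p under 0.05. This was Cntnap5a, a relative of Cntnap2, with 44.4, 43.4, 42.6 and 44.3 CPM in the libraries labelled heterozygous and 48.6, 52.4, 47.4 and 55.8 CPM in those labelled wild type. All libraries labelled heterozygous were below all labelled wild type. Its log2 fold change of -0.22 ± 0.07 (SE) had an unadjusted p of 0.00387 and did not pass (adjusted p = 0.266). Cul4b and Upf2 had no overlap between the labels either, as was so for 4.55% of all tested genes. The intervals lay within 1.25-fold for 45 of the 46, 24 of the 26, 30 of the 32 and 42 of the 49 genes.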

How the data were processed

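Total RNA of whole cortex was extracted with a column kit, enriched for polyadenylated RNA and sequenced, per the labels' protocols. The deposited table holds raw counts of reads for each gene symbol, in 1 column per mouse. STAR 2.5.2b, HTSeq and the genome build mm10 are named, per the submitters' processing notes. The annotation, the strand setting and the counting mode are not stated in the sources used here, so overlapping and antisense genes may share or lose reads. Of 22000 rows, 19881 were matched by symbol to GENCODE M21 (GRCm38), which gave coordinates and exon lengths.

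All later steps started from these counts. Genes were filtered with edgeR's filterByExpr (minimum count 10), which left 13879 genes, and scaled by TMM. Tests used the robust quasi-likelihood F-test of edgeR 4.0.16 in R 4.3.3, with sex and genotype as terms, Benjamini-Hochberg adjustment over all tested genes and a threshold of 0.05. Standard errors are the log2 fold change over the square root of F, and 95% intervals use the test's degrees of freedom. The sex difference came from the same fit, and the interaction and the run of animal numbers from fits with that further term. Differences within a run are differences of mean log2 CPM with a pseudocount of 0.5. Alternatives were DESeq2 1.42.0, voom in limma 3.58.1, other scalings, filters, covariates and thresholds, each sex alone and each library left out. The steps were tested on simulated data. The 8 mice are separate per the labels' titles.

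The members and the gene lists were chosen with earlier results of these data known. Values in every library are given for members called in any comparison, for those with the smallest genotype p (3 of each role list of 6 or more members, 2 of each smaller one) and for the 2 highest and 2 lowest by level per kb. Promoter windows were those of RefSeq (GRCm38.p6), matched by symbol for 33 of the 44 members. Other members with such values (Nrxn2, Tsc2, Ube3a and Fmr1) were chosen after their values were seen.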

Additional observations from a re-analysis of the deposited data

Results flagged for a closer look

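Each of the 44 genes was examined in both genotype groups of 4 for a library far from the other 3, which makes 88 groups, and 7 had one. Chance flags about 1 in 20 groups. Among the libraries labelled heterozygous, Chd8 (128 CPM, against 109 to 111 in the others) and Trip12 (203 CPM, against 175 to 179) stood high in replicate 1, and Tsc1 (77.2 CPM, against 79.0 to 79.3) stood low in replicate 2 by a small amount. Among the libraries labelled wild type, Chd3 (592 CPM, against 616 to 619) was low in replicate 1, Nlgn1 (74.4 CPM, against 85.9 to 87.5) was low in replicate 3, and Tbl1xr1 (73.9 CPM, against 66.9 to 67.7) and Magel2 (1.58 CPM, against 0.349 to 0.458) were high in replicate 4.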

How the results depend on the processing

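The count of 0 called members by genotype, of 0 by the interaction and of 1 (Ddx3x) by sex was the same under all alternatives run for each, with any library left out among them. The count of calls over all genes, 37 in the reported fit, was 72 at an adjusted p under 0.10, 82 without a filter, 80 with the DESeq2 Wald test, 72 with the run of animal numbers as a term, 7 in males alone and 6 in females alone, and between 19 and 80 with 1 library left out. Leaving out replicate 1 of the heterozygous label gave 80 calls and leaving out its replicate 2 gave 24. Leaving out replicate 1 of the wild type label gave 23 calls and leaving out its replicate 2 gave 19. The fits of a single sex also had fewer samples. The cause of these changes was not tested. The medians of the 3 roles moved by less than their spread between libraries. With 1 library left out they lay between -0.008 and 0.05 for chromatin and transcription genes, between -0.01 and 0.007 for synaptic and membrane genes and between -0.02 and 0.01 for the others. Of the named members, the log2 fold changes of Chd8 (-0.0080 to 0.0842), Trip12 (-0.0250 to 0.0576), Nf1 (-0.0403 to 0.0035) and Nlgn3 (-0.00085 to 0.114) changed sign with a library left out, all without a call. Nrxn3 lay between -0.14 and -0.09 and Tsc1 between -0.14 and -0.09 in these fits. Under the stricter filter Magel2 was not tested. The labels pair no mice by number. Each run of animal numbers held 1 mouse of either genotype in each sex, and the fit with run and sex as terms, which blocks by both, is the one with 72 calls over all genes; it called 0 members. Kmt2a lay between -0.15 and -0.007 and Kdm6b between 0.02 and 0.25 with 1 library left out.

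Magel2 and Adnp had few reads, and their intervals include changes of more than 1.5-fold. For Magel2 the libraries also differed beyond their counting intervals. Without a stated annotation, counts of genes with shared exons are uncertain. The p-values set differences between groups against the spread between these mice.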
